A study of Homo sapiens with 2 samples.

Results

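The genes of antigen presentation described here are 9 of the 20263 genes in the deposited tables, taken by name: the class I heavy chains HLA-B, HLA-C and HLA-E, their light chain B2M, the peptide transporter subunits TAP1 and TAP2, the class II chains HLA-DRA and HLA-DPB1, and the invariant chain CD74. All 9 were found, and all 9 reached 1 CPM, a count scaled to the size of its library, in at least 1 library, the level used here for an expressed gene. They were measured by RNA sequencing in Cal-27, an established line of oral squamous cell carcinoma from the tongue. The library labelled HIPK2 shRNA came from Cal-27 cells stably transduced with an shRNA against HIPK2 (GV-248-HIPK2-sh), a nuclear serine/threonine kinase, and the control library from Cal-27 cells stably transduced with a scrambled shRNA (sh-scramble). Both were grown in regular medium, with no further agent named, and the sources used here do not say whether the transduced cells were a clone or a pool. The series is about invasion and epithelial-mesenchymal transition after knockdown of HIPK2.

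MHC class I molecules show peptides from the cell's own proteins to CD8+ T cells. Peptides are cut by the proteasome, carried into the endoplasmic reticulum by TAP1 and TAP2, and loaded on a heavy chain that is held at the surface by beta-2-microglobulin, the product of B2M. MHC class II molecules show peptides from endosomes to CD4+ T cells. They are made mainly by professional antigen-presenting cells, and epithelial and carcinoma cells can also make them, above all under interferon gamma. The invariant chain CD74 fills the class II groove until the molecule reaches the endosome.

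The stretches just before the transcription starts of 4 of these genes are shown because short elements known from MHC genes can be looked for in them and because these genes stood at different ends of the comparison: HLA-DPB1 was the member with the highest ratio between the libraries, B2M the one with the lowest, and HLA-B and HLA-C lay close together near no change. Each is the 250 bases before the start on the gene's strand, from RefSeq on GRCh38.p14, at chr6:33075740-33075989 (plus strand), chr15:44711267-44711516 (plus strand), chr6:31357180-31357429 (minus strand) and chr6:31272093-31272342 (minus strand). Capitals mark matches, on either strand and partly overlapping, to the interferon-stimulated response element (GAAANNGAAA), the CCAAT box (CCAAT), the core of the X2 box (TGACG) and a kappaB site (GGGANNNNCC).
HLA-DPB1: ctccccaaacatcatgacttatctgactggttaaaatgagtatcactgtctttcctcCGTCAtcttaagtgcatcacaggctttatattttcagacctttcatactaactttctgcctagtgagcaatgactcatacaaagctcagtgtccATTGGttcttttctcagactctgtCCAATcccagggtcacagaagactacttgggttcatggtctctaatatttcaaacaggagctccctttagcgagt
B2M: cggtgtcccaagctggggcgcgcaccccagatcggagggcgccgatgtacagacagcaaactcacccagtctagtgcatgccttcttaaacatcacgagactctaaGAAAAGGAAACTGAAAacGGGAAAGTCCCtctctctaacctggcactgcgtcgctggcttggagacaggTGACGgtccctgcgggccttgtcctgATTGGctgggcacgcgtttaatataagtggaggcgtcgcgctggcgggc
HLA-B: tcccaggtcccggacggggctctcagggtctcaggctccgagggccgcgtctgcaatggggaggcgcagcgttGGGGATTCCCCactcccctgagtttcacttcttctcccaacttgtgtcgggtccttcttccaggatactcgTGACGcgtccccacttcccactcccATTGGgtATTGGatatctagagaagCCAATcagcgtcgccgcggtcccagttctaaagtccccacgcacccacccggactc
HLA-C: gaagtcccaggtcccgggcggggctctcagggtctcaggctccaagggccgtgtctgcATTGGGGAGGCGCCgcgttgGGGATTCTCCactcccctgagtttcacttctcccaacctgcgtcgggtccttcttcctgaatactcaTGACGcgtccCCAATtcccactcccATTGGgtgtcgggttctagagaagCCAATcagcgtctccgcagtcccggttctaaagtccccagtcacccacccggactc

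A promoter window of 300 bases (250 before and 50 after the start) was found for 7 of the 9 members. The interferon-stimulated element matched in 3 of them, B2M, TAP1 and TAP2, and in 3.57% of all 35116 RefSeq windows of that length. The CCAAT box matched in 6 of the 7 members and in 34.6% of all windows. The X2 core matched in 5 of the 7 members and in 24.6% of all windows, and the kappaB form in 5 of the 7 members and in 25.6% of all windows. HLA-DPB1 held CCAAT boxes and a match to the X2 core letters, and no match to the other forms in this window. That match began at -193 from the start, and the nearest CCAAT match at -99. Whether it is the X2 box of this gene was not tested, and an X2 box spelled with other letters would be missed. The same holds for the interferon-stimulated element. Windows without a match to its letters, such as those of HLA-B and HLA-C, may still hold one in another spelling. The windows of HLA-B and HLA-C were identical at 269 of 296 aligned bases (90.9%). Their matches are therefore not separate cases. The motif forms were chosen after the windows were read, so the shares over all windows are no test of the members. The matches describe letters and say nothing on their own about binding in these cells.

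The library labelled HIPK2 shRNA held 26450251 counts and the control library 28064923 counts, so that 1 count was worth 0.0370 CPM in the library labelled HIPK2 shRNA and 0.0365 CPM in the control. Each group had 1 library. The differences therefore lack a check by replicates and carry no p-value, and they are differences between these libraries, which need not be differences between the conditions. Ranges in brackets are 95% counting intervals, which cover counting error only. The targeted gene went against its label in the counts: HIPK2 had 218 counts (8.06 CPM) in the library labelled HIPK2 shRNA and 110 counts (4.01 CPM) in the control library, a ratio of 2.01 (1.59 to 2.55). In the authors' TPM, a level scaled to transcript length and library size, it stood at 0.873 in the library labelled HIPK2 shRNA and 1.63 in the control, which is lower, and the transcript length implied by the deposited values was 4.0 times as long in the library labelled HIPK2 shRNA. For the 9 members that length ratio lay between 0.976 and 1.08, and counts and TPM gave the same direction for each.

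The members did not move as a block. Of the 9, 6 were higher and 3 lower in the library labelled HIPK2 shRNA, with a median log2 ratio of 0.05, against 0.00 over all 11813 expressed genes. Log2 ratios were taken after adding 1 to the CPM of both libraries, with the control as denominator, so that genes of low level appear closer to 0 than they are. Past 2-fold, HLA-DPB1 was higher and 0 members were lower, beside 3.26% of all expressed genes past 2-fold to the higher side and 2.87% to the lower side. Past 1.5-fold, 2 members were higher, HLA-DPB1 and HLA-DRA, beside 10.6% of all expressed genes, and 1 was lower, B2M, beside 9.96%. HLA-DRA, at a log2 ratio of 0.59, was only just past 1.5-fold. Its lowest value under other scalings or pseudocounts, 0.56, was not. These are rules of size, not tests. Every count past 1.5-fold or 2-fold, here and below, uses the log2 ratio with 1 CPM added, so a gene of low level can have a printed CPM ratio past 2 and not be counted.

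**Figure D1:**
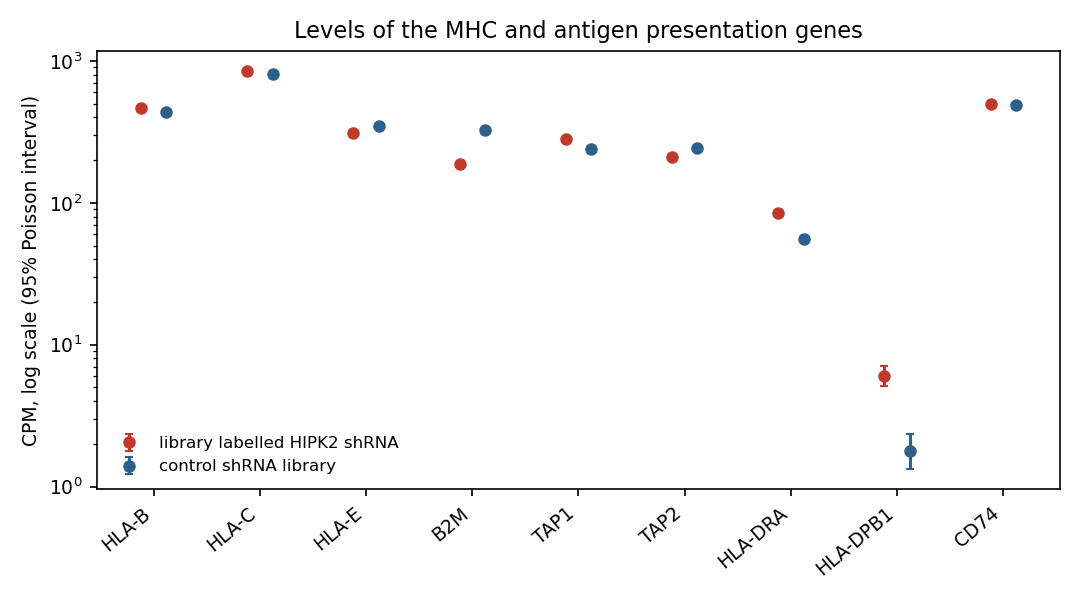
Level of each of the 9 genes in CPM (log scale, 95% Poisson intervals), in the library labelled HIPK2 shRNA and in the control library, 1 library each. HLA-C stands highest in both (842 and 815 CPM) and HLA-DPB1 lowest (6.02 and 1.79 CPM). B2M is the gene whose point lies visibly lower in the library labelled HIPK2 shRNA (187 against 328 CPM).

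On the TPM scale, which allows for length, the members spanned a wide range. HLA-C was the highest, at 855 TPM in the library labelled HIPK2 shRNA and 760 TPM in the control, where 1.49% of expressed genes stood higher. In the library labelled HIPK2 shRNA the order below it was HLA-B, CD74, B2M, HLA-E, TAP1, HLA-DRA, TAP2 and HLA-DPB1. In the control it was CD74, HLA-B, B2M, HLA-E, TAP1, TAP2, HLA-DRA and HLA-DPB1. With 1 library a group, the spread of neighbours in these orders is unknown, and HLA-B and CD74 (490 and 488 TPM in the library labelled HIPK2 shRNA, 426 and 442 TPM in the control) are not told apart here.

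Among the class I heavy chains, HLA-B and HLA-C were within a few percent of the control. HLA-B (ENSG00000234745, chromosome 6, 31269491 to 31357188, minus strand, GRCh38), one of the classical heavy chains that present peptides to T cells, had 12625 counts (467 CPM) in the library labelled HIPK2 shRNA and 12061 counts (440 CPM) in the control, a ratio of 1.06 (1.03 to 1.09). HLA-C (ENSG00000204525, chromosome 6, 31268749 to 31272105, minus strand), a classical heavy chain that is also a main ligand of killer-cell immunoglobulin-like receptors, had 22783 counts (842 CPM) in the library labelled HIPK2 shRNA and 22345 counts (815 CPM) in the control, a ratio of 1.03 (1.01 to 1.05). Both sat in the middle of the transcriptome, with 41.4% of expressed genes at a higher ratio than HLA-B and 45.2% at a higher ratio than HLA-C. The deposited spans of these neighbours overlap, but in GENCODE 29 their exons share only 35 bases.

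HLA-E pointed the other way. HLA-E (ENSG00000204592, chromosome 6, 30489467 to 30494205, plus strand), the non-classical heavy chain that is read by the NKG2A receptor of natural killer cells, had 8360 counts (309 CPM) in the library labelled HIPK2 shRNA and 9584 counts (349 CPM) in the control, 1.13-fold lower (1.10 to 1.16). HLA-C stood at 4.80 times the TPM of HLA-E in the library labelled HIPK2 shRNA and at 4.04 times in the control. HLA genes are highly polymorphic, and the sources used here do not say how reads from alleles unlike the reference were counted. None of these 3 heavy chains passed 1.5-fold in either direction, beside 10.6% (higher) and 9.96% (lower) of all expressed genes.

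B2M was the member that was lower by the widest margin. B2M (ENSG00000166710, chromosome 15, 44711477 to 44718877, plus strand) had 5048 counts (187 CPM) in the library labelled HIPK2 shRNA and 8992 counts (328 CPM) in the control, 1.76-fold lower (1.70 to 1.82). A lower ratio was found for 4.83% of expressed genes. B2M was lower while HLA-B and HLA-C were slightly higher: B2M stood at 0.157 of the summed TPM of HLA-B, HLA-C and HLA-E in the library labelled HIPK2 shRNA and at 0.309 in the control. In GENCODE 29, no 100-base stretch of B2M is shared with another gene. In bulk RNA, fewer cells with a transcript and less of it per cell cannot be told apart.

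**Figure D2:**
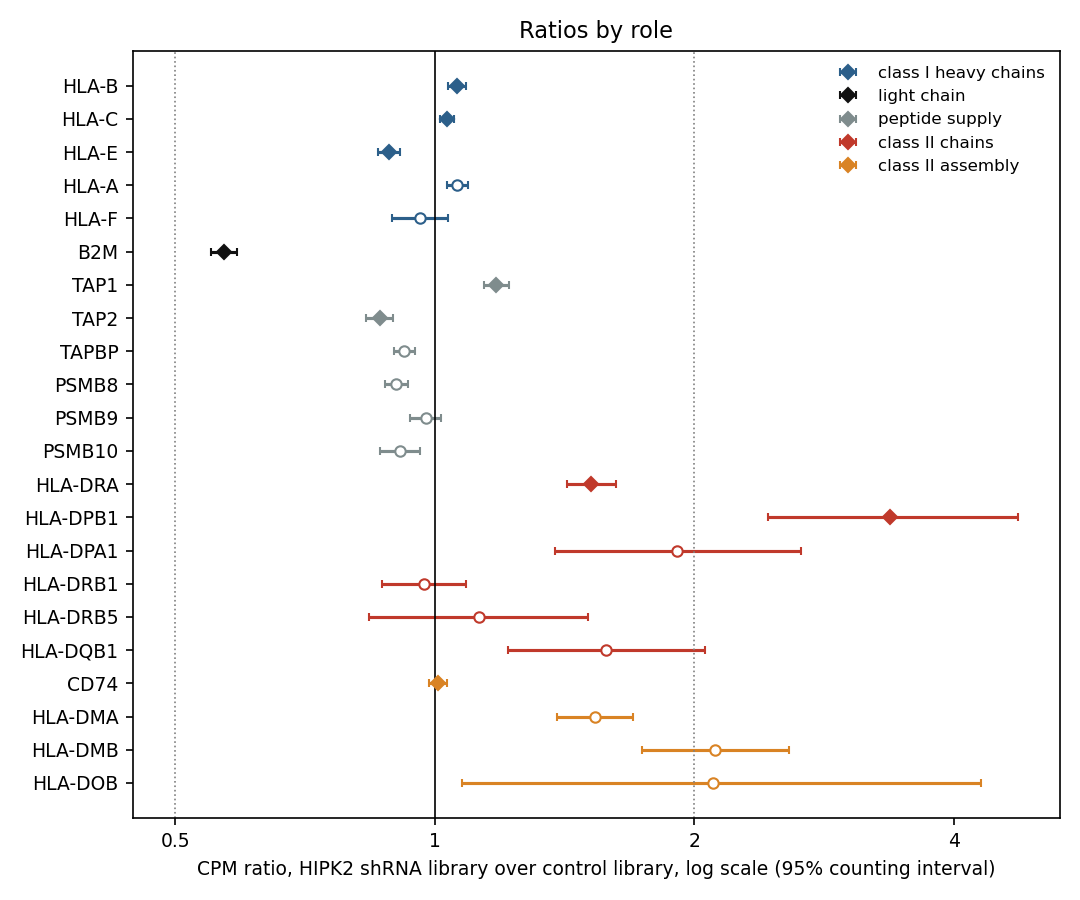
CPM ratio (log scale), with the library labelled HIPK2 shRNA as numerator and the control library as denominator, by role, with 95% counting intervals and 1 library a group. Filled diamonds are the 9 members, and open circles are other genes of the same roles. Of the members, HLA-DPB1 (3.37) and HLA-DRA (1.52) lie to the higher side, B2M (0.569) to the lower side, and the other 6 between 0.863 and 1.18.

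The transporter subunits, which work as a heterodimer, differed in opposite directions by small amounts. TAP1 (ENSG00000168394, chromosome 6, 32845209 to 32853978, minus strand) had 7578 counts (280 CPM) in the library labelled HIPK2 shRNA and 6516 counts (238 CPM) in the control, a ratio of 1.18 (1.14 to 1.22). TAP2 (ENSG00000204267, chromosome 6, 32821833 to 32838780, minus strand) had 5673 counts (210 CPM) in the library labelled HIPK2 shRNA and 6663 counts (243 CPM) in the control, 1.16-fold lower (1.12 to 1.20). TAP1 stood at 2.57 times the TPM of TAP2 in the library labelled HIPK2 shRNA and at 1.79 times in the control. TAP2 shares 31.9% of its 100-base stretches with AL669918.1, a readthrough gene over HLA-DOB and TAP2 with 26 counts in the library labelled HIPK2 shRNA and 111 counts in the control, and their summed ratio was 0.853 (0.823 to 0.884). TAP1 overlaps an antisense RNA, PSMB8-AS1, over 456 exonic bases, and the sources used here do not say whether strand was used in counting.

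Both class II members were higher. HLA-DRA (ENSG00000204287, chromosome 6, 32439842 to 32445046, plus strand), the alpha chain common to all HLA-DR molecules, had 2286 counts (84.5 CPM) in the library labelled HIPK2 shRNA and 1526 counts (55.6 CPM) in the control, a ratio of 1.52 (1.42 to 1.62). HLA-DPB1 (ENSG00000223865, chromosome 6, 33075926 to 33087201, plus strand), the beta chain of HLA-DP, had 163 counts (6.02 CPM) in the library labelled HIPK2 shRNA and 49 counts (1.79 CPM) in the control, a ratio of 3.37 (2.44 to 4.74). HLA-DPB1 rests on few counts, and its log2 ratio of 1.33 became 0.70 with a pseudocount of 5 CPM, under 2-fold. Of expressed genes, 1.62% had a higher ratio than HLA-DPB1 and 10.3% a higher ratio than HLA-DRA. HLA-DRA stood at 17.2 times the TPM of HLA-DPB1 in the library labelled HIPK2 shRNA and at 38.9 times in the control.

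CD74 did not follow the class II chains. CD74 (ENSG00000019582, chromosome 5, 150401637 to 150412929, minus strand) had 13434 counts (496 CPM) in the library labelled HIPK2 shRNA and 13513 counts (493 CPM) in the control, a ratio of 1.01 (0.984 to 1.03). Its direction depended on the scaling, with a log2 ratio of 0.14 in TPM and -0.0007 with DESeq2 size factors. CD74 stood at 4.90 times the TPM of HLA-DRA in the library labelled HIPK2 shRNA and at 7.23 times in the control, so it was in excess of HLA-DRA in both.

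**Figure D3:**
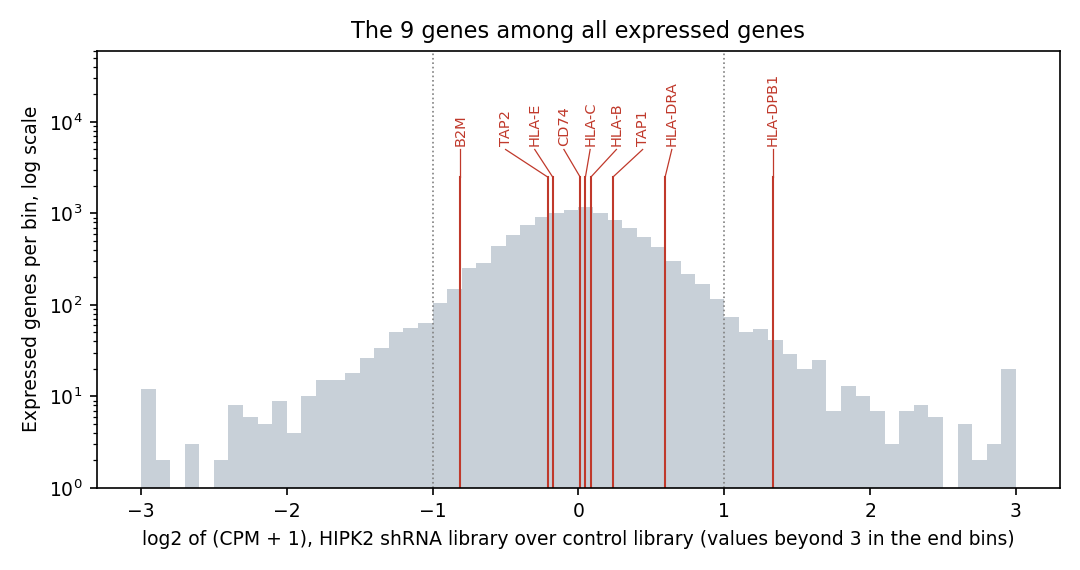
Distribution of the log2 ratio over all 11813 expressed genes (grey bars, log scale of genes per bin), with the 9 genes as red lines and dotted lines at 2-fold. HLA-DPB1 lies beyond the upper dotted line, HLA-DRA and B2M in the shoulders, and the other 6 lie near the centre.

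The remaining HLA class II genes mostly pointed the same way as HLA-DRA and HLA-DPB1. With both members included, 9 HLA class II genes were expressed, of which 8 were higher and 1 lower, with a median log2 ratio of 0.59. On that scale 5 (HLA-DPB1, HLA-DMB, HLA-DPA1, HLA-DMA and HLA-DRA) passed 1.5-fold to the higher side, where 10.6% of all expressed genes did. To the lower side 0 did, where 9.96% of all expressed genes did. HLA-DMA and HLA-DRA, at log2 ratios of 0.60 and 0.59, were only just past 1.5-fold, so the count of 5 can change with the scaling. HLA-DOB, which serves as a chain of a modulator of HLA-DM, is among the 8 with 29 counts in the library labelled HIPK2 shRNA and 14 counts in the control, but 27.0% of its 100-base stretches are shared with the readthrough gene AL669918.1, and their summed counts of 55 in the library labelled HIPK2 shRNA and 125 in the control turn its direction. HLA-DMB, a chain of the HLA-DM molecule that exchanges peptides on class II, had 325 counts (12.01 CPM) in the library labelled HIPK2 shRNA and 156 counts (5.69 CPM) in the control, a ratio of 2.11 (1.74 to 2.57) and a log2 ratio of 0.96, just under the 2-fold rule. Its partner HLA-DMA had a ratio of 1.53 (1.39 to 1.70). HLA-DPA1, the partner of HLA-DPB1, had 111 counts in the library labelled HIPK2 shRNA and 59 counts in the control, a ratio of 1.91 (1.38 to 2.66). These partners lie on opposite strands and share 96 exonic bases. HLA-DRB1, the usual partner of HLA-DRA, was the gene with the lower value, at 618 counts (22.8 CPM) in the library labelled HIPK2 shRNA and 645 counts (23.5 CPM) in the control, a ratio of 0.971 (0.868 to 1.09), and it was higher in TPM (log2 ratio 0.06). HLA-DQB1 had a ratio of 1.58 (1.21 to 2.06) and HLA-DRB5 one of 1.12 (0.840 to 1.51). Below the level of an expressed gene, HLA-DQA1 had 21 counts in the library labelled HIPK2 shRNA and 5 counts in the control, and HLA-DOA had 8 counts in the library labelled HIPK2 shRNA and 0 counts in the control. Summed TPM of the 13 HLA class II genes in the tables was 217 in the library labelled HIPK2 shRNA and 140 in the control.

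Class II processing genes included large differences in both directions. Of 17 expressed genes in the list of other class II and processing genes, 12 were higher and 5 lower, with a median of 0.21. That list includes the expressed HLA class II genes above other than HLA-DRA and HLA-DPB1, so its counts overlap theirs and add no separate lean. IFI30 was past the 2-fold rule to the higher side, beside 3.26% of all expressed genes, and CTSS to the lower side, beside 2.87%. CTSS, the protease cathepsin S that trims the invariant chain, had 105 counts in the library labelled HIPK2 shRNA and 268 counts in the control, 2.518-fold lower (2.002 to 3.186). IFI30, a thiol reductase of the endosome, had 4358 counts in the library labelled HIPK2 shRNA and 784 counts in the control, a ratio of 5.64 (5.22 to 6.09). It shares 82.3% of its 100-base stretches with AC007192.1, which had 1518 counts in the library labelled HIPK2 shRNA and 3017 counts in the control, and the ratio of the summed counts was 1.57 (1.504 to 1.633), under 2-fold. AP1S1, a subunit of a clathrin adaptor, had a ratio of 1.64 (1.57 to 1.72), and CTSB, the protease cathepsin B, one of 1.16 (1.14 to 1.17). CTSD and CST3, like CTSB among the highest of the list by mean CPM, were lower, at ratios of 0.915 (0.895 to 0.936) and 0.809 (0.785 to 0.833).

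Class I-like genes leaned to lower values. Of 13 expressed, 5 were higher and 8 lower, with a median of -0.27. By the 2-fold rule 0 were called higher, beside 3.26% of all expressed genes, and 2 lower (PROCR and AZGP1), beside 2.87%. PROCR, the endothelial protein C receptor, had 27.9 CPM in the library labelled HIPK2 shRNA and 63.7 CPM in the control, 2.286-fold lower (2.097 to 2.493). AZGP1, a secreted class I-like protein, had 2 counts in the library labelled HIPK2 shRNA and 35 counts in the control. MR1, which presents microbial metabolites, was 1.52-fold lower (1.37 to 1.68). Ligands of the natural killer receptor NKG2D went both ways, with MICA at a ratio of 1.13 (1.07 to 1.195), MICB 1.29-fold lower (1.21 to 1.36), ULBP2 1.49-fold lower (1.35 to 1.66) and RAET1E at 24 counts in the library labelled HIPK2 shRNA and 58 counts in the control (2.38-fold lower, 1.46 to 4.01, with a log2 ratio of -0.72 on the scale of the rule).

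The loading complex and its chaperones were split. Of 11 expressed, 6 were higher and 5 lower, with a median of 0.04, and none passed 2-fold, beside 3.26% (higher) and 2.87% (lower) of all expressed genes. TAPBP, the tapasin that bridges TAP and the heavy chain, had 367 CPM in the library labelled HIPK2 shRNA and 399 CPM in the control, a ratio of 0.922 (0.897 to 0.948). PDIA3, the oxidoreductase bound to tapasin, was 1.35-fold lower (1.31 to 1.39), and MOGS, the first glucosidase of glycan trimming, 1.75-fold lower (1.66 to 1.84). UGGT1, the glycoprotein folding sensor, had a ratio of 1.56 (1.43 to 1.70).

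Of 17 expressed proteasome and trimming genes, 6 were higher and 11 lower, with a median of -0.13. None passed 2-fold, beside 3.26% of all expressed genes to the higher side and 2.87% to the lower side. The immunoproteasome subunits, which interferon gamma induces, lay close to the control: PSMB8 had 294 CPM in the library labelled HIPK2 shRNA and 326 CPM in the control, PSMB9 had 167 CPM in the library labelled HIPK2 shRNA and 171 CPM in the control, and PSMB10 had 92.3 CPM in the library labelled HIPK2 shRNA and 101 CPM in the control. PSMB7, a constitutive catalytic subunit, was 1.59-fold lower (1.56 to 1.62). PSME3, the nuclear proteasome activator, had a ratio of 1.56 (1.51 to 1.62).

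Among 18 expressed regulators of MHC transcription, 12 were higher and 6 lower, with a median of 0.06. Past 2-fold there were none, beside 3.26% (higher) and 2.87% (lower) of all expressed genes. CIITA, the coactivator of class II genes, had 969 counts (35.8 CPM) in the library labelled HIPK2 shRNA and 824 counts (30.0 CPM) in the control, a ratio of 1.19 (1.09 to 1.31), and a log2 ratio of 0.25, against 0.60 in TPM. NLRC5, its counterpart for class I genes, had 56.8 CPM in the library labelled HIPK2 shRNA and 42.3 CPM in the control, a ratio of 1.34 (1.24 to 1.45). NFYA, a subunit of the factor that binds CCAAT boxes, had a ratio of 1.45 (1.26 to 1.68), and RFX5, of the factor that binds X boxes, one of 1.03 (0.887 to 1.19). IRF1, the interferon-induced activator, had 156 CPM in the library labelled HIPK2 shRNA and 161 CPM in the control. NFKB1, a subunit of NF-kappaB, was 1.40-fold lower (1.29 to 1.51).

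In the list of interferon receptors and proximal signalling 11 were expressed, 4 higher and 7 lower, with a median of -0.23. By the 2-fold rule 1 was called higher and 0 lower, beside 3.26% and 2.87% of all expressed genes. JAK1, the kinase shared by the interferon receptors, was the one past 2-fold, with 1009 counts (37.3 CPM) in the library labelled HIPK2 shRNA and 411 counts (15.0 CPM) in the control, a ratio of 2.49 (2.22 to 2.80). JAK2, the other kinase of the interferon gamma receptor, had 22 counts in the library labelled HIPK2 shRNA and 0 counts in the control, where 0 allows up to 0.109 CPM. The chains of the interferon gamma receptor were lower, IFNGR2 by 1.32-fold (1.23 to 1.41) and IFNGR1 by 1.20-fold (1.07 to 1.34). IFNAR2, a chain of the type I receptor, was 1.62-fold lower (1.40 to 1.87), and SOCS3, a feedback inhibitor, 1.48-fold lower (1.37 to 1.59). Transcripts of IFNG, IFNB1 and IFNL1 had 0 counts in both libraries.

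**Figure D4:**
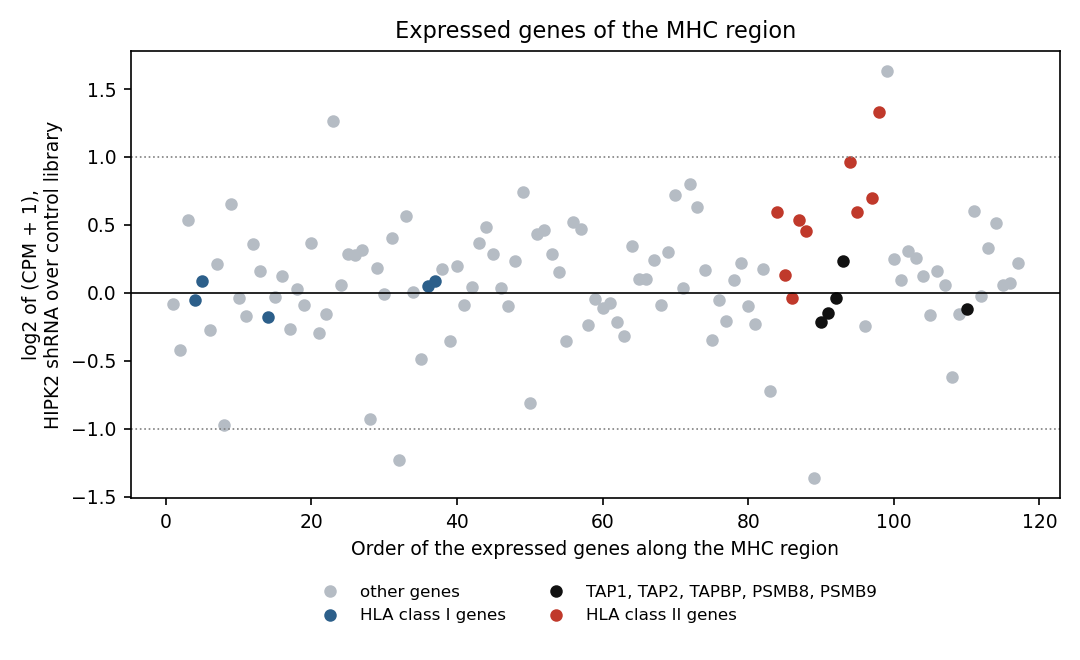
Log2 ratio of the 117 expressed genes of the MHC region on chromosome 6, in chromosomal order, with dotted lines at 2-fold. HLA class I genes lie near 0, from -0.18 to 0.09, while 8 of the 9 HLA class II genes lie above 0, up to 1.33; of these, HLA-DOB turns to -0.87 when summed with a readthrough gene.

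Of the members, 7 lie in the MHC region, the block of chromosome 6 that holds the class I, class III and class II genes, whose expressed genes here run from 28903002 (TRIM27) to 33457548 (ZBTB9) on GRCh38. There 117 of 179 genes were expressed, of which 71 were higher and 46 lower, with a median of 0.10. By the 2-fold rule 3 were called higher and 2 lower, near the 3.26% and 2.87% of all expressed genes. The 96 of these genes outside the antigen presentation lists had a median of 0.10 too, with 58 higher and 38 lower. PSMB8 and PSMB9 lie between TAP2 and the HLA-DM genes, with TAP2 and TAP1 as their direct neighbours, and were at log2 ratios of -0.15 and -0.04.

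Markers of the line and of other cells were read beside these values. All 12 squamous markers were expressed, 4 higher and 8 lower, with KRT5, the basal keratin, at 2554 CPM in the library labelled HIPK2 shRNA and 2766 CPM in the control. KRT14, its partner, had 44 counts in the library labelled HIPK2 shRNA and 318 counts in the control, and the cadherin of epithelial junctions, CDH1, stood 2.11-fold lower (2.01 to 2.22). Of 22 markers of leukocytes and antigen-presenting cells, 13 were at 0 counts in both libraries, among them PTPRC, CD3E, MS4A1, CD79A, CD163 and CD1C. Another 7 were expressed, 3 higher and 4 lower, with a median log2 ratio of -0.16. In the library labelled HIPK2 shRNA and the control, counts were 558 and 634 for CD68 and 452 and 642 for CORO1A. They were 88 and 136 for CD14, and 55 and 43 for ITGAM. The summed level of that list was 73.1 CPM in the library labelled HIPK2 shRNA and 124 CPM in the control. Without LAPTM5, a lysosomal protein of leukocytes, it was 52.5 CPM in the library labelled HIPK2 shRNA and 62.1 CPM in the control. Within it ITGAX, an integrin of dendritic and myeloid cells, had 29 counts in the library labelled HIPK2 shRNA and 6 counts in the control, and LAPTM5 was 2.99-fold lower (2.72 to 3.30). The part of these markers in the class II values was not tested. Of 11 fibroblast and endothelial markers, 4 were at 0 in both libraries, and the sum of the list was 50.5 CPM in the library labelled HIPK2 shRNA and 74.6 CPM in the control. Without CDH5, the cadherin of endothelial junctions, the sum was 23.1 CPM in the library labelled HIPK2 shRNA and 19.4 CPM in the control, and of the 5 expressed markers 3 were higher and 2 lower, with a median log2 ratio of 0.17.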

How the data were processed

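Total RNA of 2 Cal-27 cultures was sequenced as paired-end reads of 150 bp, per the labels' protocols. Alignment to GRCh38 used TopHat2 2.1.1 after a read check in FastQC, per the submitters' processing notes; the counting tool, its annotation and its use of strand were not given in the sources used here. Count, TPM and FPKM stand side by side per the file headers. The deposited count is a whole number and not normalized. The deposited TPM was used to compare levels between genes, since it allows for length, and the deposited FPKM only for the transcript length it implies.

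Counts were scaled to CPM with TMM factors (1.02 for the library labelled HIPK2 shRNA and 0.977 for the control) from edgeR 4.0.16 in R 4.3.3, with no test, since a single library on each side gives no residual degrees of freedom. Log2 ratios used a pseudocount of 1 CPM. CPM ratios carry 95% exact (Clopper-Pearson) intervals conditional on the summed count, from scipy 1.17.1. These intervals treat reads as independent draws; no molecular identifiers are named in the labels, so they are a lower bound on the counting error. At 0 counts the upper limit was set at 3 counts, or 0.111 CPM in the library labelled HIPK2 shRNA and 0.109 CPM in the control. The scaling and the rule of size were tested on simulated data.

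The 9 members, the 6 other antigen presentation lists and the 3 marker lists were chosen with earlier results of these data known. Of each list, the rule named up to 5 expressed genes with the largest absolute log2 ratio and up to 3 with the highest mean CPM, and of the MHC region 5 at each end; not all of them are printed. HLA-DMA, HLA-DRB1, HLA-DRB5, HLA-DQB1, HLA-DQA1, HLA-DOA, HLA-DOB, TAPBP, PSMB8, PSMB9, PSMB10, CIITA, RFX5, JAK2, IFNGR1 and the interferon genes were added for their roles after their values were seen, and the motif forms were chosen after the windows were read. Shared exons and shared 100-base stretches come from GENCODE 29. Among other named genes CIITA, PDIA3, PSMB8, PSMB9, PSMB10, PSME3, HLA-DMA, HLA-DMB and HLA-DOB also share exonic bases with a neighbour. CD68 shares 81.7% of its exonic bases with a neighbour, IFNAR2 44.2%, CTSD 41.7%, RAET1E 35.0%, IRF1 22.0% and IFNGR2 12.8%. The counts of all these genes are uncertain to that extent, and the list is not complete. Some listed genes are not reported here. Alternatives were other scalings (total count, upper quartile, DESeq2 1.42.0 size factors, TPM), other pseudocounts, other filters and a 1.5-fold rule.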

Additional observations from a re-analysis of the deposited data

How the results depend on the processing

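No alternative reversed a value past the 2-fold rule. HIPK2, at 0.85, went to -0.49 in TPM, and HLA-DOB, at 0.46, to -0.87 when summed with AL669918.1. Over all alternatives the log2 ratio ran from 0.70 to 1.70 for HLA-DPB1, 0.56 to 0.69 for HLA-DRA, -0.83 to -0.74 for B2M, 0.22 to 0.34 for TAP1, -0.23 to -0.14 for TAP2, 0.07 to 0.20 for HLA-B, 0.04 to 0.17 for HLA-C and -0.19 to -0.08 for HLA-E; CD74 ran from -0.0007 with DESeq2 size factors to 0.14 in TPM. Total counts, upper quartile and TPM moved the median of all expressed genes to 0.06, 0.07 and 0.07. Under these 3 the members' median was 0.11, 0.12 and 0.17, that of the loading complex 0.11, 0.12 and 0.12, and that of the proteasome list -0.0668, -0.0613 and -0.0317. The members' mean was 0.12. A pseudocount of 0.1 CPM gave 676 expressed genes higher and 515 lower past 2-fold, and 7 and 4 in the MHC region. A pseudocount of 5 CPM gave 124 higher and 161 lower, 1 and 0 in the MHC region, and 0 members higher, because it shrinks low genes such as HLA-DPB1. A filter of 10 CPM removes HLA-DPB1 and gave 0 members higher, 159 expressed genes higher and 217 lower, and 1 and 0 in the MHC region. The 1.5-fold rule gave 2 members higher and 1 lower, and 1254 and 1176 expressed genes. With no filter the median of the class I-like list was -0.0447 and that of the interferon list 0, since genes at 0 enter. Summing counts of genes that share exons was chosen after seeing the data, as were the marker sums without LAPTM5 or CDH5. No paired analysis was possible because there is 1 library on each side, and for the same reason no replicate could be left out. The depth limits HLA-DPB1 most among the members.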

Other observations

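Other genes of the MHC region at the ends of its range have roles outside antigen presentation. COL11A2, a chain of a fibrillar cartilage collagen that lies near HLA-DPB1, had 121 counts in the library labelled HIPK2 shRNA and 21 counts in the control, a ratio of 5.84 (3.66 to 9.78). PPP1R18, the actin-binding phosphatase regulator phostensin, had 2405 counts (88.9 CPM) in the library labelled HIPK2 shRNA and 998 counts (36.4 CPM) in the control, a ratio of 2.44 (2.27 to 2.63). C4A, a complement component with a near-identical copy, C4B, that makes its counts uncertain, had 44 counts in the library labelled HIPK2 shRNA and 14 counts in the control.

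At the lower end, IER3, an immediate early gene of stress and survival signalling, had 9585 counts (354 CPM) in the library labelled HIPK2 shRNA and 18523 counts (675 CPM) in the control, 1.91-fold lower (1.86 to 1.95). C6orf15 had 16 counts in the library labelled HIPK2 shRNA and 75 counts in the control, and RNF39, a RING finger gene, 26 counts in the library labelled HIPK2 shRNA and 78 counts in the control. None of these differences has a replicate check.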
